A study of Mus musculus with 13 samples.

Results

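The 44 genes described here are 27 genes of mitosis and 17 genes of DNA replication and the entry into S phase, read across 13 RNA-seq libraries of the mouse submandibular gland, a major salivary gland. The members were taken by symbol from the deposited table of normalised values. All 44 were found among its 17957 entries, and 43 passed the filter on low counts that left 14727 genes for testing. Bub1, a checkpoint kinase, did not pass it, so 26 mitotic and 17 replication genes were tested.

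PreIR-NTN is a group of 5 libraries from mice whose glands were injected with Cere-120, the AAV2-NRTN vector that carries neurturin, 10 days before irradiation. PreIR-GFP is a group of 5 libraries from irradiated mice given AAV2-GFP, with green fluorescent protein in place of neurturin, on the same schedule. NonIR is a group of 3 libraries from mice that were not irradiated, and whether they were given a vector is not stated in the sources used here, so irradiation and vector cannot be told apart in either comparison with NonIR. All mice are labelled as strain CH3 and 1 year old, and glands were taken 300 days after treatment. The promoter of the vectors, the radiation dose and the link between libraries and single animals are not given, so p-values measure the spread between these libraries, which may be technical.

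Libraries held between 9724301 reads in genes (PreIR-GFP 1) and 16771003 (PreIR-GFP 4), and no 2 libraries of a group agreed within sampling noise. The 20 most abundant genes took between 35.0% of the reads in PreIR-GFP 1 and 60.2% in PreIR-GFP 3, and the TMM factors, which correct for such differences in composition, were 1.42 and 0.768 in these libraries. PreIR-GFP 1 stood apart in depth, composition and B cell markers, so results that rest on it are also given without it. Acinar markers summed to between 55440 and 94420 CPM (counts scaled to a common library size after TMM) over the 13 libraries, and no acinar or granular tubule marker was at 0. The transgene entries for EGFP and AAV2 held 0 reads in all 13 libraries, where a count of 0 allows up to 3 reads, so the vector labels could not be checked from them.

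Cells that divide pass from G1 into S phase, where E2F factors switch on genes for origin licensing, the replicative helicase and nucleotide supply. They then pass into G2 and mitosis, where the MuvB complex with B-Myb and FoxM1 switches on genes for the spindle, the kinetochore and the anaphase-promoting complex, acting through a promoter element called CHR. In resting cells the DREAM complex holds both sets down. The adult submandibular gland renews slowly, and few of its cells are in cycle at any time.

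The promoters are shown first because the 2 classes differ in these elements, which played no part in choosing the members. RefSeq promoters (build GRCm38.p6, 250 bases before the start and 50 bases from it) were found for 23 of 27 mitotic and 14 of 17 replication genes, and a gene with more than 1 promoter was counted if any held the motif. The CHR, searched as TTTGAA on both strands, was present in 18 of 23 mitotic promoters (78.3%) and 2 of 14 replication promoters (14.3%), against 20.2% of the promoters of 27025 genes. A CCAAT box, searched as CCAAT on both strands, was present in 20 of 23 mitotic promoters (87.0%) and 9 of 14 replication promoters (64.3%), against 41.1% of all. An E2F core, searched as TTCCCGC or TTGGCGC on both strands, was present in 3 of 23 mitotic promoters (13%) and 7 of 14 replication promoters (50%), against 7.79% of all. CHR and CCAAT stood together in 17 of 23 mitotic promoters (73.9%), 2 of 14 replication promoters (14.3%) and 8.97% of all. A match is a description of the letters in this window and no evidence of binding.

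The 3 mitotic and the 3 replication genes with the lowest p between PreIR-NTN and PreIR-GFP are printed below, 5′ to 3′ on the gene's strand, with CHR, CCAAT and E2F matches on either strand in capitals.
Cdca8 (chr4:124936868-124937167, minus strand): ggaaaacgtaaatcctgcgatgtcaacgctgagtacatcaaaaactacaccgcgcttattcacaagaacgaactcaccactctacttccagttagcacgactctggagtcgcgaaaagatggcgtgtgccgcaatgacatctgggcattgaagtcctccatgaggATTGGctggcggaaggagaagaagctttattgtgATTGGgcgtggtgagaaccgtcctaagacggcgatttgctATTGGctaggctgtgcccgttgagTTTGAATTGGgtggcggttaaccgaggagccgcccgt
Plk1 (chr7:122159185-122159484, plus strand): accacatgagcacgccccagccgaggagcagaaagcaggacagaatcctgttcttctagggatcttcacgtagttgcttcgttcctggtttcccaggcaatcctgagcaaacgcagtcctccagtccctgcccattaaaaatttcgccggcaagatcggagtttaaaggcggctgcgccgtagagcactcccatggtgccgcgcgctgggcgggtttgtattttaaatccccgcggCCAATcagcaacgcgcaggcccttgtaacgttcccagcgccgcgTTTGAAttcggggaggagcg
Cdc20 (chr4:118437294-118437593, minus strand): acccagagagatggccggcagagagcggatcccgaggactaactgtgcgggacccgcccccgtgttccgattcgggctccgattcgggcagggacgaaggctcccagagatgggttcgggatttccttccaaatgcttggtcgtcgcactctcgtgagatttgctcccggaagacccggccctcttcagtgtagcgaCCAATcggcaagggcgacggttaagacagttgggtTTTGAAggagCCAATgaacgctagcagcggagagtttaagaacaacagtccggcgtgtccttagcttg
Cdt1 (chr8:122567765-122568064, plus strand): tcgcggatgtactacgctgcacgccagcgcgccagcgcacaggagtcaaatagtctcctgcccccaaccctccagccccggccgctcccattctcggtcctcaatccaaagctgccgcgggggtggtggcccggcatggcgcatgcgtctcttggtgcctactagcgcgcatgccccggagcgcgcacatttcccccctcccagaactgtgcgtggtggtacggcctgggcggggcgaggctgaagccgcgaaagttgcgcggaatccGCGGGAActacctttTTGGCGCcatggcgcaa
Mcm5 (chr8:75109259-75109558, plus strand): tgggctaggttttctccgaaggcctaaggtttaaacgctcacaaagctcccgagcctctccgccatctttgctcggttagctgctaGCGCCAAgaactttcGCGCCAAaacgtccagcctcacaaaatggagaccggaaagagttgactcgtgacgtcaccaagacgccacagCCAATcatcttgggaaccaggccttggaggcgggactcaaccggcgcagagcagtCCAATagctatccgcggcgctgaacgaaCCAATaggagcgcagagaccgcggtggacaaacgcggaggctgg
E2f1 (chr2:154569377-154569676, minus strand): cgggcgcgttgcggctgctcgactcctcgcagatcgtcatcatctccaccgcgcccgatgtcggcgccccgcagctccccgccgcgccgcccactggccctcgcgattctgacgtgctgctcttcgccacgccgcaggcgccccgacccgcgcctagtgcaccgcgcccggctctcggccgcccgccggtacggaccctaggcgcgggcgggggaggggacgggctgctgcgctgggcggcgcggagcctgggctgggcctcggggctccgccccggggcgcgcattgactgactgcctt
Counting the start as base 1, the CHR began at base 14 in Cdca8, base 31 in Plk1 and base -18 in Cdc20, and each of these promoters also held CCAAT boxes, of which the last in Cdca8 overlaps its CHR. The replication promoters printed held no CHR. Cdt1 held E2F cores at bases 19 and 34, Mcm5 held them at bases -164 and -149 together with 3 CCAAT boxes, and E2f1 held none of the 3 motifs in this window. In the GENCODE annotation, however, the E2f1 gene begins at chr2:154569892, so its printed window lies wholly inside the gene. The window, counted among the 14 replication promoters, says nothing of the sequence before that start. The Cdca8 window also lies wholly inside its gene, which begins at chr4:124939311 in GENCODE.

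Mitotic genes stood higher in PreIR-NTN than in PreIR-GFP in 24 of 26 genes tested, at a median log2 fold change of 0.58, and replication genes in 14 of 17, at a median of 0.19. Over all genes tested the median was -0.01, and 47.3% stood above 0. No member passed the threshold of an adjusted p of 0.05 in edgeR's quasi-likelihood test over all genes, where 0.0204% of genes were called (3 genes, all lower). At an unadjusted p under 0.05 there were 11 members, 8 mitotic and 3 replication, all higher in PreIR-NTN, against a background of 6.08% of all genes, or 2.36% of all genes on the higher side. That count was 5 of 43 members tested without PreIR-NTN 5, 7 of 43 without PreIR-GFP 3 and 19 of 42 without PreIR-GFP 1. Over all genes the same fits gave 939 of 14617, 866 of 14641 and 875 of 14511. DESeq2 called 1 member, Cdca8, in this comparison, and limma-voom called 0.

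The mean of the 27 mitotic genes on a log2 CPM scale centred on each gene's mean over the libraries was 0.32, 0.15, 0.37, 0.33 and 0.79 in PreIR-NTN 1 to 5. It was 0.47, -0.19, -0.96, -0.35 and -0.23 in PreIR-GFP 1 to 5, and -0.31, 0.43 and -0.80 in NonIR 1 to 3. PreIR-NTN was evenly high (0.39 ± 0.24, SD, n = 5), whereas PreIR-GFP (-0.25 ± 0.51, SD, n = 5) and NonIR (-0.23 ± 0.62, SD, n = 3) each held 1 library as high as PreIR-NTN, namely PreIR-GFP 1 and NonIR 2. Of the 27 mitotic genes, 20, 16, 18, 19 and 25 stood above their own median over the libraries in PreIR-NTN 1 to 5, against 21, 4, 0, 5 and 8 in PreIR-GFP 1 to 5 and 2, 22 and 2 in NonIR 1 to 3. The mitotic means of PreIR-NTN and PreIR-GFP overlapped through PreIR-GFP 1 alone.

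The mean of the 17 replication genes on the same scale was 0.06, 0.23, 0.04, 0.14 and 0.30 in PreIR-NTN 1 to 5. It was -0.15, -0.12, -0.31, -0.09 and 0.02 in PreIR-GFP 1 to 5, and 0.03, 0.15 and -0.30 in NonIR 1 to 3. The libraries of PreIR-NTN (0.15 ± 0.11, SD, n = 5) and PreIR-GFP (-0.13 ± 0.12, SD, n = 5) did not overlap in this mean, while the NonIR libraries (-0.04 ± 0.23, SD, n = 3) spread over both. The gap between the lowest PreIR-NTN and the highest PreIR-GFP library was narrow (0.038 against 0.024), and in the summed CPM of these genes the groups overlapped, at 131.7 to 163.9 in PreIR-NTN and 125.3 to 148.9 in PreIR-GFP. PreIR-GFP 1, high in mitotic genes, was low in this replication mean but had the highest summed replication CPM of its group (148.9), and its difference between the class means, mitotic minus replication, was 0.62, the highest of the 13 libraries. In PreIR-NTN 2 that difference was -0.08, the only one below 0 in its group.

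**Figure D1:**
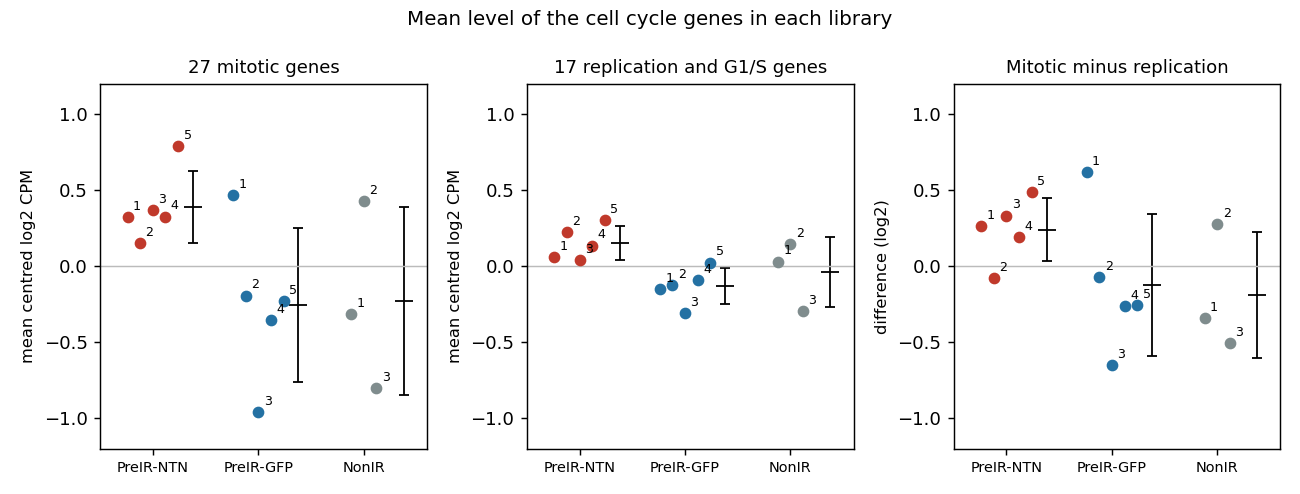
Mean log2 CPM of the 27 mitotic genes (left), of the 17 replication and G1/S genes (middle) and their difference (right), each gene centred on its mean over the 13 libraries. Points are libraries with their replicate numbers, and bars are the mean ± SD of the group (n = 5, 5 and 3). PreIR-GFP 1 (0.47) and NonIR 2 (0.43) lie among the PreIR-NTN libraries in mitotic genes, and replication genes spread over a narrower range.

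The libraries high in the mitotic mean were high in most of its genes. PreIR-NTN 5 was the highest of the 13 libraries for 11 of the 27 mitotic genes, PreIR-GFP 1 for 7 and NonIR 2 for 4. PreIR-GFP 3 was the lowest for 13 and NonIR 3 for 7. The group mean was highest in PreIR-NTN for 24 of the 27 mitotic and 11 of the 17 replication genes. Without PreIR-GFP 1 the mitotic median between PreIR-NTN and PreIR-GFP was 0.97, and without PreIR-GFP 3 it was 0.37.

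**Figure D2:**
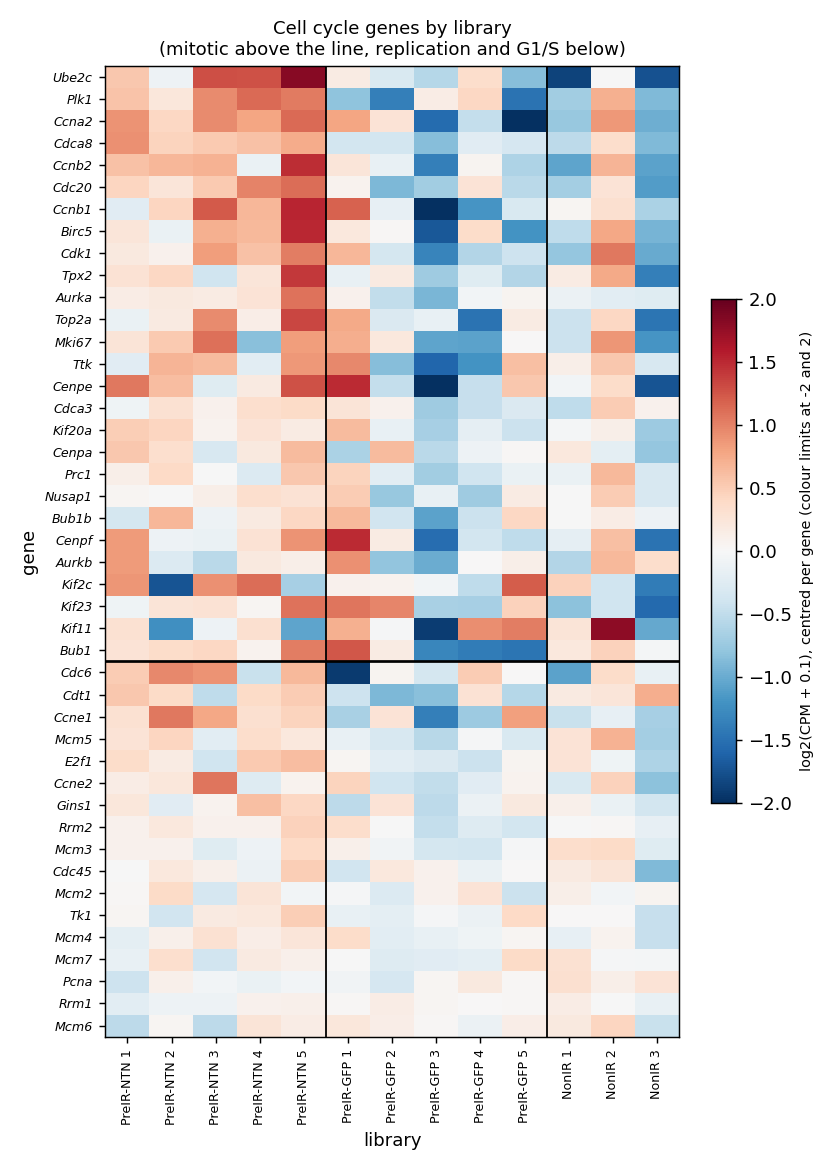
Level of each of the 44 genes (rows) in each library (columns), as log2(CPM + 0.1) centred per gene, with colours limited at -2 and 2. In the mitotic block PreIR-NTN 5, PreIR-GFP 1 and NonIR 2 are the reddest columns and PreIR-GFP 3 and NonIR 3 the bluest, and the replication block is paler throughout.

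The class medians also stood apart in level and in spread, which is a description with no test. Per kilobase of exon, the mean level over the 13 libraries had a median of 0.325 CPM for mitotic genes, with a range of 0.0489 (Kif11, a spindle motor) to 2.80 (Nusap1, a microtubule-bundling protein). For replication genes the median was 1.39 CPM per kilobase, with a range of 0.181 (Cdc6, which loads the helicase onto origins) to 7.60 (Pcna, the sliding clamp of the DNA polymerases). A mitotic gene had a median of 17 reads per library, a replication gene 77 and any gene tested 112. The biological coefficient of variation, edgeR's estimate of spread beyond counting noise, had a median of 0.416 for mitotic, 0.217 for replication and 0.223 for all genes. It lay above the value fitted for genes of like abundance in 19 of 26 mitotic genes (73.1%) and 2 of 17 replication genes (11.8%), against 25.1% of all genes. The within-group coefficient of variation of a mitotic gene had a median of 37.9% in PreIR-NTN, 55.4% in PreIR-GFP and 59.4% in NonIR, and that of a replication gene 19.3%, 18.7% and 19.5% in the same groups. Unlike the biological coefficient, this SD over mean of the CPM includes counting noise, which is larger at the fewer reads of mitotic genes.

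Cdca8, the borealin subunit of the chromosomal passenger complex (chr4:124918465-124939311, GRCm38), had the lowest p of all members between PreIR-NTN and PreIR-GFP. It stood at 3.66, 2.64, 2.77, 2.90 and 3.25 CPM in PreIR-NTN 1 to 5, against 1.45, 1.45, 1.02, 1.62 and 1.49 CPM in PreIR-GFP 1 to 5 and 1.30, 2.45 and 0.981 CPM in NonIR 1 to 3. Every PreIR-NTN library lay above every PreIR-GFP and NonIR library. The log2 fold change against PreIR-GFP was 1.105 (SE 0.24, edgeR adjusted p = 0.179), so it missed the threshold. DESeq2 gave an adjusted p of 0.0216, and over 22 alternatives the adjusted p ranged between 0.0216 and 0.714. Groups that did not overlap were seen for 2 members in this comparison, Cdca8 and Aurka, both higher, against a background of 1.11% of all genes and 0.394% on the higher side.

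Aurka, the kinase of spindle poles and centrosomes (chr2:172356190-172370535), stood at 2.72, 2.81, 2.77, 2.97 and 5.31 CPM in PreIR-NTN 1 to 5, against 2.61, 1.72, 1.25, 2.36 and 2.56 CPM in PreIR-GFP 1 to 5 and 2.26, 2.11 and 2.04 CPM in NonIR 1 to 3. The margin over PreIR-GFP 1 was narrow, and PreIR-NTN 5 lay far above the rest. Its log2 fold change against PreIR-GFP was 0.65 (SE 0.25, edgeR adjusted p = 0.731), or 0.42 without PreIR-NTN 5. Plk1, the polo-like kinase that drives mitotic entry and spindle assembly (chr7:122159439-122169873), stood at 1.29, 0.997, 1.71, 1.96 and 1.82 CPM in PreIR-NTN 1 to 5, against 0.435, 0.264, 0.938, 1.15 and 0.238 CPM in PreIR-GFP 1 to 5 and 0.479, 1.44 and 0.409 CPM in NonIR 1 to 3. PreIR-GFP 4 and NonIR 2 reached into the PreIR-NTN range. For Plk1 the log2 fold change against PreIR-GFP was 1.365 (SE 0.44, edgeR adjusted p = 0.627).

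Cdc20 and Ube2c serve the anaphase-promoting complex, Cdc20 as its activator and Ube2c as the ubiquitin-conjugating enzyme that works with it. Cdc20 (chr4:118432901-118437352) stood at 1.15, 0.997, 1.22, 1.74 and 1.90 CPM in PreIR-NTN 1 to 5, against 0.870, 0.396, 0.469, 1.01 and 0.535 CPM in PreIR-GFP 1 to 5 and 0.479, 1.01 and 0.327 CPM in NonIR 1 to 3. PreIR-GFP 4 and NonIR 2 lay just above PreIR-NTN 2, the lowest library of its group, and all others lay below the PreIR-NTN range. Cdc20 had a log2 fold change of 1.08 against PreIR-GFP (SE 0.35, edgeR adjusted p = 0.627). Ube2c (chr2:164769898-164778822) stood at 0.789, 0.469, 1.39, 1.38 and 2.06 CPM in PreIR-NTN 1 to 5, against 0.580, 0.396, 0.313, 0.674 and 0.238 CPM in PreIR-GFP 1 to 5 and 0.0684, 0.506 and 0.0817 CPM in NonIR 1 to 3. Of its group only PreIR-NTN 2 lay within the ranges of the others. Ube2c had the largest fitted difference of any member in this comparison, a log2 fold change of 1.43 (SE 0.47, edgeR adjusted p = 0.627). It rests on 1 to 26 reads per library, and 22.8% of its exon bases are shared with Tnnc2 on the opposite strand, whose reads cannot be told apart where the library kit does not mark strand.

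**Figure D3:**
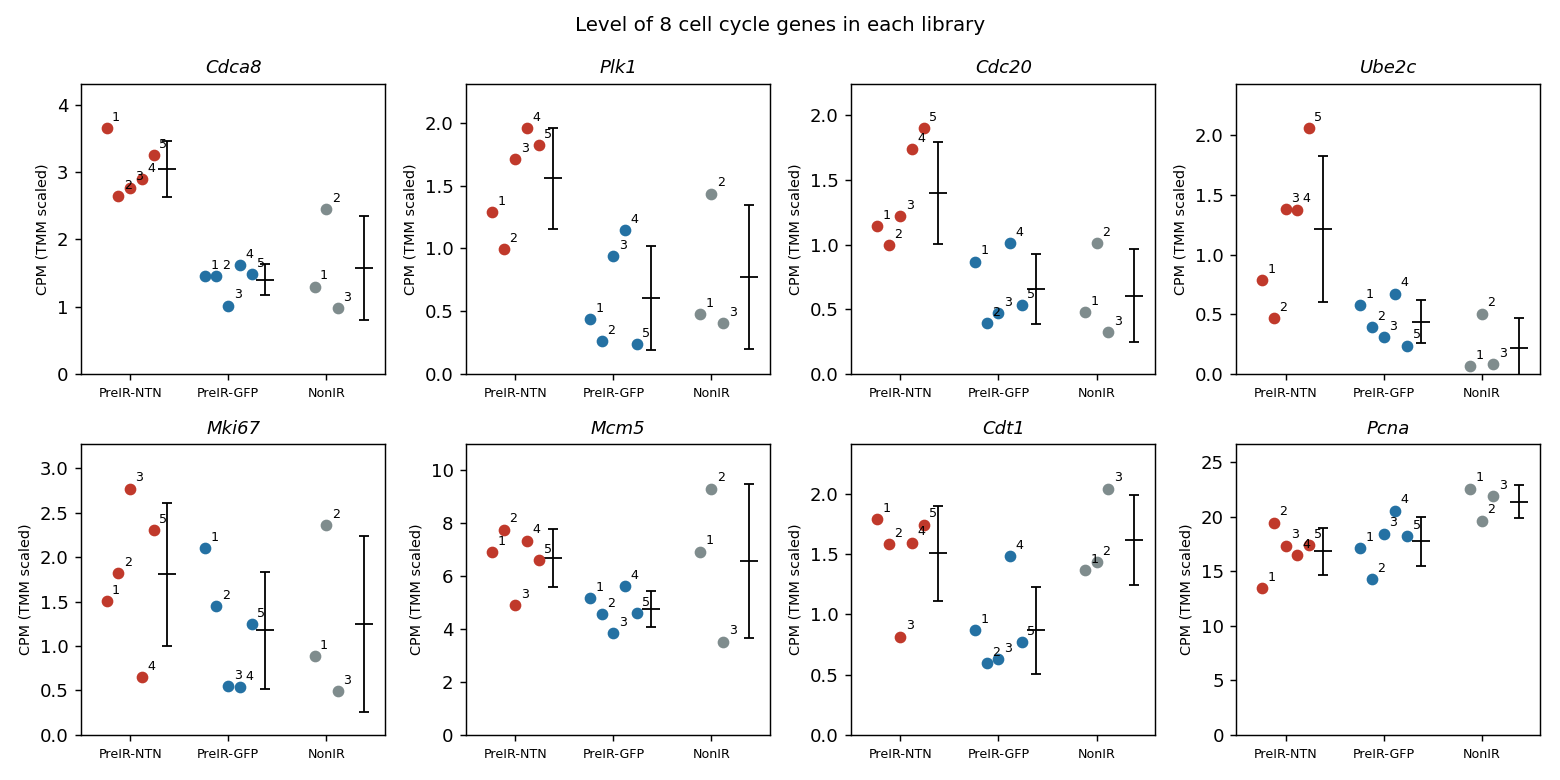
Level in CPM of Cdca8, Plk1, Cdc20, Ube2c and Mki67 (mitotic) and of Mcm5, Cdt1 and Pcna (replication) in each library. Points are libraries with their replicate numbers, and bars are the mean ± SD of the group (n = 5, 5 and 3), with axes that begin at 0 and hide the part of the Ube2c bar of NonIR below it. In Cdca8 all PreIR-NTN libraries lie above all others, and in Pcna they lie below all NonIR libraries.

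The cyclins of mitosis pointed the same way with wider scatter. Ccnb1, Ccnb2 and Ccna2, the cyclins that activate Cdk1, had log2 fold changes of 1.04, 1.08 and 1.30 between PreIR-NTN and PreIR-GFP (SE 0.55, 0.42 and 0.59), and Cdk1 itself 0.86 (SE 0.42). Ccnb1 averaged 2.24 ± 1.05 CPM in PreIR-NTN and 1.08 ± 1.05 CPM in PreIR-GFP (SD, n = 5 each), and PreIR-GFP 3 held 1 read of it. The passenger complex subunit Birc5 (survivin) had a log2 fold change of 0.99 (SE 0.45) and Tpx2, which activates Aurka on the spindle, 0.83 (SE 0.40). Aurkb, the kinase of the passenger complex itself, was at 0.14 (SE 0.42). EdgeR adjusted p-values of these 7 genes lay between 0.736 and 0.998.

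Mki67 and Top2a are the common histological markers of cycling cells, a perichromosomal protein and the topoisomerase that untangles sister chromatids. Mki67 (chr7:135689784-135716361) stood at 1.51, 1.82, 2.77, 0.652 and 2.30 CPM in PreIR-NTN 1 to 5, against 2.10, 1.45, 0.547, 0.539 and 1.25 CPM in PreIR-GFP 1 to 5 and 0.890, 2.36 and 0.490 CPM in NonIR 1 to 3. Its groups overlapped widely, at a log2 fold change of 0.60 between PreIR-NTN and PreIR-GFP (SE 0.46, edgeR adjusted p = 0.917), or 0.921 without PreIR-GFP 1. Top2a (chr11:98992943-99024189) stood at 2.22, 2.76, 4.81, 2.68 and 6.27 CPM in PreIR-NTN 1 to 5, against 4.21, 1.98, 2.19, 0.809 and 2.73 CPM in PreIR-GFP 1 to 5 and 1.78, 3.29 and 0.817 CPM in NonIR 1 to 3. It too overlapped, at 0.65 (SE 0.42, edgeR adjusted p = 0.894), or 0.381 without PreIR-NTN 5.

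Not every mitotic gene stood higher. Of the kinesins, the motors of the spindle, Kif11 was at -0.91 (SE 0.73) and Kif23, the central spindle motor of cytokinesis, at -0.06 (SE 0.40) between PreIR-NTN and PreIR-GFP, while Kif2c was at 0.14 (SE 0.54) and Kif20a at 0.41 (SE 0.27). Kif11 had at most 14 reads in a library. The remaining mitotic genes, which include the kinetochore proteins Cenpa, Cenpe and Cenpf, the checkpoint kinases Bub1b and Ttk and the midzone proteins Prc1 and Nusap1, had log2 fold changes between 0.25 (Cenpf) and 0.55 (Ttk). Bub1, not tested, averaged 0.509 ± 0.166 CPM in PreIR-NTN, 0.309 ± 0.382 in PreIR-GFP (SD, n = 5 each) and 0.415 ± 0.0898 in NonIR (SD, n = 3).

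**Figure D4:**
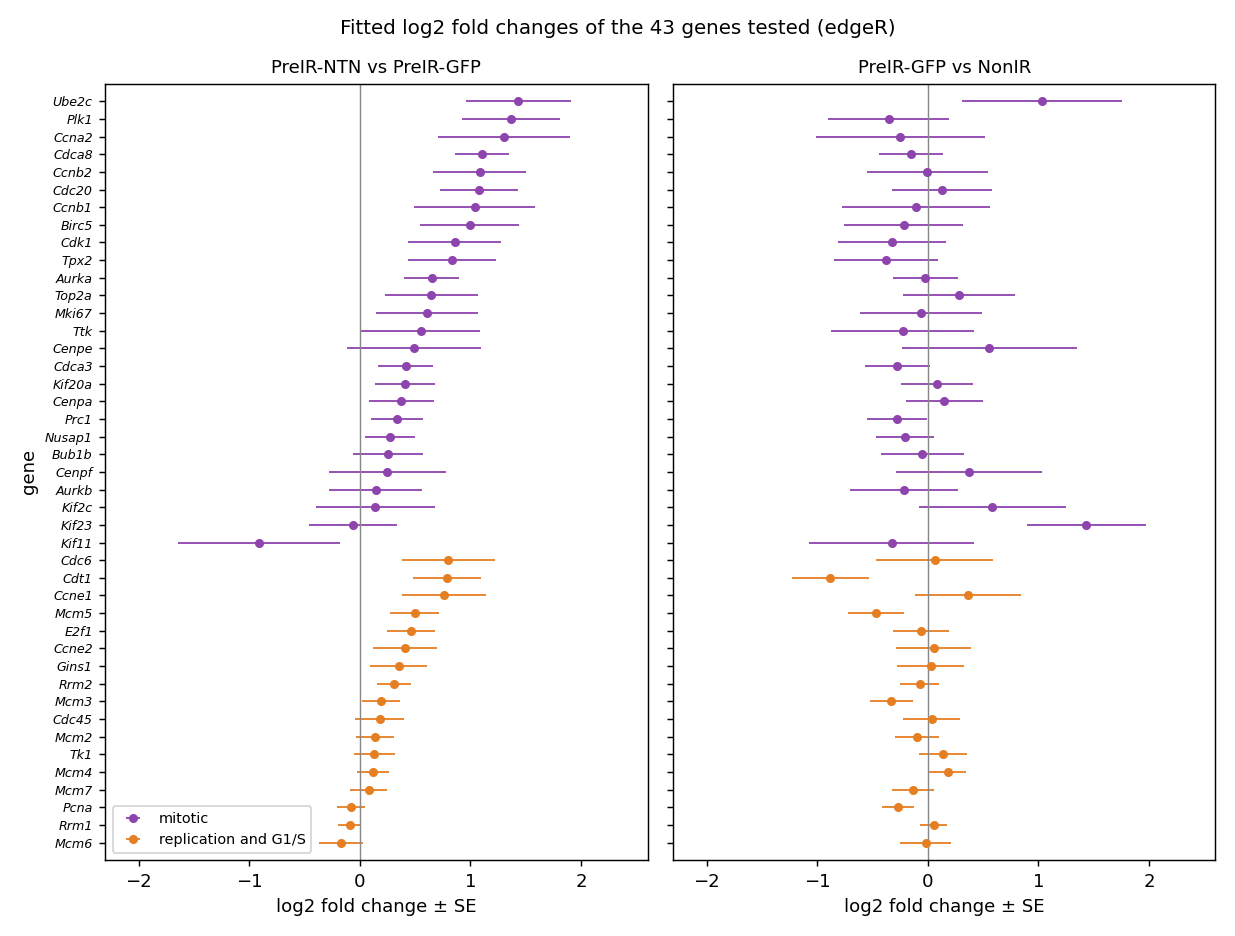
Fitted log2 fold change ± SE (edgeR) of the 43 genes tested, in PreIR-NTN against PreIR-GFP (left) and PreIR-GFP against NonIR (right), sorted by the left value within mitotic genes (purple) and replication and G1/S genes (orange). On the left 24 of 26 mitotic genes lie above 0, and on the right 9 of 26 do. PreIR-GFP enters both panels, so they are not independent.

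Among replication genes, licensing factors held the largest differences between PreIR-NTN and PreIR-GFP. Cdt1, which recruits the helicase to origins (chr8:122568015-122573554), stood at 1.79, 1.58, 0.815, 1.59 and 1.75 CPM in PreIR-NTN 1 to 5, against 0.870, 0.594, 0.625, 1.48 and 0.773 CPM in PreIR-GFP 1 to 5 and 1.37, 1.44 and 2.04 CPM in NonIR 1 to 3. PreIR-NTN 3 lay among the PreIR-GFP libraries, and PreIR-GFP was the low group of the 3. Its log2 fold change against PreIR-GFP was 0.79 (SE 0.30, edgeR adjusted p = 0.736). Cdc6, its partner in licensing, was at 0.80 (SE 0.42), Ccne1, the cyclin of the G1/S switch, at 0.76 (SE 0.38, or 1.204 without PreIR-GFP 5), and E2f1, the transcription factor of that switch, at 0.46 (SE 0.21).

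The subunits of the MCM helicase, which form a single ring, had fitted differences between -0.17 and 0.19 apart from Mcm5, at 0.50. Mcm5 (chr8:75109569-75128439) stood at 6.88, 7.74, 4.89, 7.32 and 6.58 CPM in PreIR-NTN 1 to 5, against 5.15, 4.55, 3.83, 5.60 and 4.58 CPM in PreIR-GFP 1 to 5 and 6.91, 9.28 and 3.51 CPM in NonIR 1 to 3. PreIR-NTN 3 alone lay in the PreIR-GFP range, at a log2 fold change of 0.50 (SE 0.22, edgeR adjusted p = 0.796). Mcm2 (chr6:88883474-88898780) stood at 5.81, 7.45, 4.48, 6.82 and 5.47 CPM in PreIR-NTN 1 to 5, against 5.58, 4.68, 6.02, 6.88 and 4.22 CPM in PreIR-GFP 1 to 5 and 6.16, 5.49 and 5.88 CPM in NonIR 1 to 3. Those ranges overlapped throughout, at a log2 fold change of 0.14 (SE 0.17, edgeR adjusted p = 0.977). Mcm3 (chr1:20802968-20820312) stood at 7.53, 7.51, 5.95, 6.60 and 9.36 CPM in PreIR-NTN 1 to 5, against 7.61, 6.73, 5.55, 5.46 and 6.95 CPM in PreIR-GFP 1 to 5 and 9.10, 9.28 and 5.965 CPM in NonIR 1 to 3. Its groups overlapped, with a fitted 0.19 on the log2 scale for PreIR-NTN over PreIR-GFP and an adjusted p of 0.956 in edgeR. Mcm4 and Mcm7 were at 0.12 and 0.08, and Mcm6 at -0.17 (SE of these and of Mcm3 0.14 to 0.20).

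Pcna (chr2:132249162-132253314) stood at 13.5, 19.5, 17.4, 16.5 and 17.4 CPM in PreIR-NTN 1 to 5, against 17.1, 14.3, 18.4, 20.6 and 18.2 CPM in PreIR-GFP 1 to 5 and 22.6, 19.7 and 21.9 CPM in NonIR 1 to 3. PreIR-NTN and PreIR-GFP overlapped, and every PreIR-NTN library lay below every NonIR library. The log2 fold change was -0.08 against PreIR-GFP (SE 0.13, edgeR adjusted p = 0.998) and -0.35 against NonIR (SE 0.15, edgeR adjusted p = 0.585). Of the nucleotide supply genes, Rrm2, the regulated subunit of ribonucleotide reductase, was at 0.31 between PreIR-NTN and PreIR-GFP (SE 0.15), Rrm1, its partner subunit, at -0.09 (SE 0.10) and Tk1, thymidine kinase, at 0.13 (SE 0.19). The helicase activators Cdc45 and Gins1 were at 0.18 and 0.35, and Ccne2 at 0.41.

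Against NonIR, PreIR-NTN stood higher in 24 of 26 mitotic genes at a median log2 fold change of 0.625 and in 11 of 17 replication genes at a median of 0.22, against a median of 0.00 and 50.5% of all genes above 0. No member passed the threshold in edgeR, DESeq2 or limma-voom, where edgeR called 0.0204% of genes, and 8 members had an unadjusted p under 0.05 against a background of 7.97%. Of these 7 stood higher, against 4.28% of all genes, and 1 lower, Pcna, against 3.69%. The count of 8 was 15 without NonIR 2, 3 without NonIR 1 or without NonIR 3 and 5 without PreIR-NTN 5, each of 43 members tested. Over all genes the same fits gave 1083 of 15202 without NonIR 2 and 759 of 15188 without NonIR 1. They gave 1245 of 15223 without NonIR 3 and 894 of 14617 without PreIR-NTN 5. Ube2c had the lowest p of the members, at a log2 fold change of 2.47 (SE 0.66, edgeR adjusted p = 0.393), where NonIR 1 and NonIR 3 held 1 read each. Cdca8 was at 0.95 (SE 0.29, edgeR adjusted p = 0.417) and Cdc20 at 1.21 (SE 0.43, edgeR adjusted p = 0.52). Mki67, Top2a and Mcm2 were at 0.54, 0.93 and 0.04 (SE 0.54, 0.51 and 0.20). With 1 library left out, Mki67 ranged over 0.165 (without NonIR 3) to 1.352 (without NonIR 2), Top2a over 0.563 to 1.497 with the same libraries out, and Ube2c over 2.02 (without NonIR 1) to 3.853 (without NonIR 2). The mitotic median was 1.199 without NonIR 2 and 0.32 without NonIR 3.

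Kif23 (chr9:61915905-61946774) stood higher than NonIR in both irradiated groups. It stood at 0.860, 1.11, 1.14, 0.943 and 2.06 CPM in PreIR-NTN 1 to 5, against 2.03, 1.91, 0.547, 0.539 and 1.31 CPM in PreIR-GFP 1 to 5 and 0.479, 0.675 and 0.245 CPM in NonIR 1 to 3. All PreIR-NTN libraries lay above NonIR, at a log2 fold change of 1.37 (SE 0.54, edgeR adjusted p = 0.552), and PreIR-GFP spread over both. Ccne1 (chr7:38097984-38107534) stood at 1.22, 2.11, 1.71, 1.23 and 1.35 CPM in PreIR-NTN 1 to 5, against 0.580, 1.19, 0.313, 0.539 and 1.78 CPM in PreIR-GFP 1 to 5 and 0.684, 0.844 and 0.572 CPM in NonIR 1 to 3. All its PreIR-NTN libraries lay above NonIR, at 1.12 (SE 0.47, edgeR adjusted p = 0.581). In all, PreIR-NTN and NonIR did not overlap in 6 members, Aurka, Cdca8, Kif23, Ccne1 and Rrm2 on the higher side and Pcna on the lower, against a background of 6.52% of all genes, or 3.22% higher and 3.3% lower.

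PreIR-GFP against NonIR, the comparison of irradiation with vector against neither or an unstated vector, showed no shared direction in either class. Mitotic genes stood higher in 9 of 26 at a median log2 fold change of -0.09 and replication genes in 8 of 17 at -0.02, against 52.7% and a median of 0.02 over all genes. No member passed in edgeR, which called 0.0340% of genes, or in DESeq2 or limma-voom. At an unadjusted p under 0.05 were 2 members, Kif23 higher (background 5.35%) and Cdt1 lower (background 3.43%), against 8.78% in both directions, and no member had groups that did not overlap, against 5.14%. Kif23 was at 1.43 (SE 0.54, edgeR adjusted p = 0.464), Cdt1 at -0.88 (SE 0.35, edgeR adjusted p = 0.486) and Ube2c at 1.03 (SE 0.72, edgeR adjusted p = 0.732). Mcm5, Mcm3, Pcna and Mcm2 were at -0.47, -0.33, -0.27 and -0.10, and Top2a and Mki67 at 0.28 and -0.06. Mcm5 was at -0.773 without NonIR 3 and -0.144 without NonIR 2, Mcm3 at -0.511 and -0.226 without the same libraries, and Ube2c at 0.582 without NonIR 1 and 2.419 without NonIR 2. Mki67 lay above 0 under limma-voom, the replicate block and library totals without TMM. The mitotic median was 0.44 without NonIR 2 and 0.11 without PreIR-GFP 3, so its sign rests on single libraries.

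Other genes of the same pathways were read from lists that hold none of the 44, and none of their genes passed the threshold in any of the 3 comparisons. Of 60 further mitotic genes 48 were tested, and 41 stood higher in PreIR-NTN than in PreIR-GFP at a median of 0.40, with 9 at an unadjusted p under 0.05, all higher, against 2.36% of all genes on that side. The lowest p were those of Cenpm (1.39, SE 0.44), a centromere protein, Pbk (1.05, SE 0.35), a mitotic kinase, and Anln (1.09, SE 0.39), the anillin of the cleavage furrow. Of 48 further replication genes 45 were tested, and 30 stood higher at a median of 0.05, and the lowest p were those of Topbp1, the replisome protein Timeless (0.80, SE 0.37) and Uhrf1 (0.615, SE 0.30), which guides maintenance methylation. Topbp1, a scaffold of origin firing and of the ATR checkpoint, stood at 15.7, 17.6, 20.2, 18.1 and 22.9 CPM in PreIR-NTN 1 to 5, against 13.05, 15.2, 12.8, 12.5 and 13.5 CPM in PreIR-GFP 1 to 5 and 9.72, 13.1 and 11.3 CPM in NonIR 1 to 3. PreIR-NTN did not overlap the other groups in Topbp1, at 0.495 against PreIR-GFP (SE 0.13, edgeR adjusted p = 0.411) and 0.73 against NonIR (SE 0.15, edgeR adjusted p = 0.243). Against NonIR, 41 of the 48 further mitotic genes stood higher in PreIR-NTN at a median of 0.34 and 24 of 48 in PreIR-GFP at 0.01, and of the 45 further replication genes 18 stood higher in each of the 2 groups. Psrc1, a spindle microtubule protein, stood higher than NonIR in every library of both irradiated groups, but on few reads. NonIR 1 to 3 held 4, 3 and 3 reads of it, and PreIR-GFP 3 and PreIR-GFP 5 held 5 and 6. Psrc1 was at 2.18 in PreIR-NTN against NonIR (SE 0.48, edgeR adjusted p = 0.263) and 1.29 in PreIR-GFP against NonIR (SE 0.51, edgeR adjusted p = 0.485).

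The regulators of these classes had medians near 0 between PreIR-NTN and PreIR-GFP. Against NonIR, G1 cyclins, CDK inhibitors and pocket proteins had a median log2 fold change of 0.127 in PreIR-NTN and 0.156 in PreIR-GFP. Genes of the E2F, B-Myb, FoxM1 and MuvB group were at 0.026 and -0.004, and all genes tested at 0.003 and 0.019. Of 14 tested G1 cyclins, CDK inhibitors and pocket proteins 8 stood higher in PreIR-NTN than in PreIR-GFP, at a median of 0.04, and the lowest p were those of Cdk4 (0.29, SE 0.11), Ccnd2 (-0.42, SE 0.20) and Rb1 (-0.46, SE 0.29). Cdkn1a, the p53 target p21 that halts the cycle, stood at 32.6, 13.3, 21.3, 16.97 and 42.5 CPM in PreIR-NTN 1 to 5, against 18.9, 31.8, 19.2, 11.5 and 11.9 CPM in PreIR-GFP 1 to 5 and 8.08, 12.4 and 11.9 CPM in NonIR 1 to 3. PreIR-NTN lay wholly above NonIR, at 1.23 (SE 0.42, edgeR adjusted p = 0.516). Of 14 tested genes of the E2F, B-Myb, FoxM1 and MuvB group 8 stood higher, at a median of 0.03, and the lowest p were those of the MuvB subunit Rbbp4 (0.50, SE 0.18), Lin9 (0.29, SE 0.18) and the E2F partner Tfdp2 (-0.25, SE 0.20). Foxm1 had 69 reads over all libraries, with 0 in NonIR 3. Its fitted difference from NonIR was the same in PreIR-NTN and in PreIR-GFP (2.04, SE 0.90, in each) and rests on few reads.

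Outside all lists, the genes whose log2 CPM followed the mitotic mean most closely over the 13 libraries were Gm3550 (Pearson r = 0.883), Dtl (0.851), Trim59 (0.851), Zfp990, Rcn2, Srsf1, Rap1b, Mphosph8, Tomm70a and Ptprz1 (0.819), of 14492 candidates. Gm3550 lies within the span of Cdc25c, one of the further mitotic genes, on the opposite strand. As the library kit does not mark strand, some reads of Gm3550 may come from Cdc25c, and this sharing of reads was not tested. Between PreIR-NTN and PreIR-GFP, Cdc25c was at a log2 fold change of 0.085 (SE 0.54) and Gm3550 at 1.33 (SE 0.55). Dtl is the adaptor of the ubiquitin ligase that destroys Cdt1 in S phase. The 13 points share groups, depth and composition, so these values describe the libraries only.

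Markers of other cells moved with the groups in which mitotic genes differed. Between PreIR-NTN and PreIR-GFP, all 7 fibroblast, all 9 macrophage, all 8 tested T cell, 9 of 10 B and plasma cell and 5 of 6 endothelial markers stood lower in PreIR-NTN. In contrast, 7 of 10 acinar and 7 of 9 granular tubule markers stood higher, and basal and myoepithelial markers were split, with 3 of 6 higher. No marker of these epithelial lists had an unadjusted edgeR p under 0.05. One of the 3 genes called in this comparison was a fibroblast marker (edgeR adjusted p = 0.0175). At an unadjusted p under 0.05, 6 of the 7 fibroblast markers stood lower, against 549 of all 14727 genes tested. The summed level ranged over 150 to 200 CPM in PreIR-NTN, 244 to 390 in PreIR-GFP and 237 to 284 in NonIR for fibroblasts. For macrophages it ranged over 84.0 to 127 CPM in PreIR-NTN, 134 to 215 in PreIR-GFP and 121 to 134 in NonIR. B and plasma cell markers summed to 71.0 to 248 CPM in PreIR-NTN, 115 to 1258 in PreIR-GFP and 110 to 483 in NonIR, and PreIR-GFP 1 and NonIR 2, the libraries of their groups highest in mitotic genes, held the highest of these sums in their groups. PreIR-NTN 5, highest in mitotic genes of PreIR-NTN, also held the highest sum of its group (248 CPM), and the 5 PreIR-NTN libraries stood in the same order in both measures. PreIR-GFP 3, lowest in mitotic genes, had 461 CPM, above the 430 CPM of PreIR-GFP 2. Germinal centre markers summed to 14.4 to 18 CPM in PreIR-NTN, 14 to 19.3 in PreIR-GFP and 14.55 to 18.55 in NonIR, nearly all of it from Bcl6 and S1pr2, which other cells also express. Those 2 genes passed the filter, at log2 fold changes of -0.02 and -0.09 between PreIR-NTN and PreIR-GFP, and of the others Mef2b, Rgs13 and Gcsam had 2, 6 and 31 reads over the 13 libraries. In bulk tissue fewer cells of a type and less RNA per cell cannot be told apart, and the part of cell makeup in the mitotic values was not tested. The share of reads in the 20 most abundant genes, lowest in PreIR-GFP 1 and highest in PreIR-GFP 3, moved against the mitotic mean within PreIR-GFP, whereas in PreIR-NTN the highest share (56.4%) was that of PreIR-NTN 5, the library with the highest mitotic mean, and the part of this share was not tested either. Without PreIR-GFP 1 and 2 together the mitotic median between PreIR-NTN and PreIR-GFP was 1.06, against 0.58 with all libraries. These 2 libraries had the highest mitotic means of PreIR-GFP (0.47 and -0.19), so leaving them out raises this median and is no test of cell makeup.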

How the data were processed

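Gland RNA was purified on a column, turned into cDNA with SMART-Seq v4 and tagged with Nextera XT, per the labels' protocols. Alignment used STAR 2.5.2a on GRCm38.p3 (also given as mm10), and DESeq2, edgeR and limma are named without a role, per the submitters' processing notes. No source used here names the counting tool. The authors deposited a table of raw count values for 48709 genes and 24 spike-in or transgene entries, the latter holding 2.46e-05% of reads and left out of library sizes. The deposited normalised signal table holds 17957 entries, each a count times 1 constant per library (tested on the files to rounding error). It served to choose the members and for 1 alternative.

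Counts were filtered with filterByExpr, scaled by TMM and tested with edgeR 4.0.16 (R 4.3.3) by its quasi-likelihood test over all 13 libraries, with 1 mean per group, 2-sided, and Benjamini-Hochberg adjustment over 14727 genes at 0.05. The residual degrees of freedom were 10, and the common biological coefficient of variation was 0.265. SE is the absolute log2 fold change divided by the root of F. Class means used log2 CPM with a prior count of 2. The fit was also run on simulated counts, with the common coefficient of 0.265 for every gene. The median of the mitotic genes was 0.416, so that run does not show how the fit performs on them. Coordinates and exon lengths are those of GENCODE (GRCm38). Exon bases shared with another gene were found for 13 of 44 members, and they exceeded 10% in Ube2c, Kif20a, Ccne2, Ccna2 and Prc1. The floor given for a count of 0 covers counting error only, as reads carry no molecular identifiers. The SD and SE values also take in the spread between libraries.

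The members and lists were chosen with earlier results of these data known. Named in full are the 6 members with the lowest p in each comparison and Mki67, Top2a, Pcna and Mcm2, and of each pathway list the 3 with the lowest p between PreIR-NTN and PreIR-GFP, with some from the other comparisons. Alternatives were DESeq2 1.42.0, limma 3.58.1 (voom, and trend on log2 of the deposited signal plus 0.5), other scaling and filters, only the 2 groups compared, a replicate block and libraries left out. Replicate numbers did not pair the samples. Same-numbered libraries correlated above 0.1 in 3 of 11 pairs, with a range of -0.428 to 0.279. The series' design text describes triplicates and another instrument, and the sample labels were followed.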

Additional observations from a re-analysis of the deposited data

Results flagged for a closer look

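Within groups of 5 libraries, 34 sets of values (the named members, the 2 class means and their difference) were screened for a library far from the rest, and 4 were found, where chance gives about 1 in 20. Kif23 stood at 2.06 CPM in PreIR-NTN 5, against 0.860 to 1.14 in the other PreIR-NTN libraries. Aurka stood at 5.31 CPM in the same library, against 2.72 to 2.97 in the others of the group. Cdt1 stood at 0.815 CPM in PreIR-NTN 3, against 1.58 to 1.79 in the others. Cdca8 stood at 1.02 CPM in PreIR-GFP 3, against 1.45 to 1.62 in the others. Outside the genes, the beta-lactamase transgene entry held 6, 6, 1, 2 and 0 reads in PreIR-NTN 1 to 5, against 3, 5, 2, 1 and 0 in PreIR-GFP 1 to 5 and 2, 5 and 5 in NonIR 1 to 3.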

How the results depend on the processing

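No member was called under any of 22 alternatives in any comparison, with 1 exception: DESeq2 called 1 member (Cdca8) in PreIR-NTN against PreIR-GFP. The mitotic median of that comparison stayed above 0 in all 22, between 0.37 (without PreIR-GFP 3) and 1.056 (without PreIR-GFP 1 and 2 together), and the replication median stayed above 0 in all 22. Counts of all genes called were within 1.5 times of those given in the report in 8 of 22 alternatives for PreIR-NTN against PreIR-GFP, 12 of 22 for PreIR-NTN against NonIR and 3 of 22 for PreIR-GFP against NonIR. For PreIR-GFP against NonIR (5 genes) they were 20 with no filter, 73 with DESeq2, 1 without PreIR-GFP 1 and 2 together, and 0 with limma-voom (1126 at an unadjusted p under 0.05), with only the 2 groups compared (1007), with the replicate block (1084) and with library totals without TMM, chosen after seeing the data (754). For PreIR-NTN against PreIR-GFP (3 genes) they were 10 with no filter, 38 with DESeq2, 1 without PreIR-GFP 1 and 2 together, and 0 with only the 2 groups (815), the replicate block (691) and no TMM (573). For PreIR-NTN against NonIR (3 genes) they were 31 with DESeq2, 1 with limma-voom, 5 without PreIR-GFP 1 and 2 together, and 0 with the replicate block (879) and no TMM (479). Leaving out 1 library gave 0 to 17 genes for PreIR-GFP against NonIR (17 without PreIR-GFP 1), 0 to 11 for PreIR-NTN against PreIR-GFP (11 without PreIR-GFP 4) and 0 to 4 for PreIR-NTN against NonIR. Under the replicate block the mitotic medians were 0.67 (PreIR-NTN against PreIR-GFP), 0.69 (PreIR-NTN against NonIR) and -0.18 (PreIR-GFP against NonIR), and the block is no pairing by design. Without TMM the median of all genes in PreIR-GFP against NonIR moved to 0.125, and the mitotic median to 0.106. With 1 library left out, the mitotic median ranged over -0.296 to 0.442 for PreIR-GFP against NonIR (0.442 without NonIR 2) and 0.318 to 1.199 for PreIR-NTN against NonIR, and the replication median over -0.2 to 0.013 for PreIR-GFP against NonIR.

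Genes near 0 changed sign, and the cause was not tested. In PreIR-GFP against NonIR, Mki67 was at 0.045 with limma-voom, 0.214 with the replicate block and 0.111 without TMM, Cdc20 at -0.127 with the block, Top2a at -0.062 without PreIR-GFP 1 and 2 together and Aurka at 0.116 without TMM. In PreIR-NTN against PreIR-GFP, Kif23 was at 0.057 with limma-voom, 0.032 with limma-trend, 0.038 with the block and 0.604 without PreIR-GFP 1 and 2 together. With 1 library left out, PreIR-GFP against NonIR ranged over -0.442 to 0.745 for Mki67, -0.085 to 0.849 for Top2a, -0.4 to 0.293 for Cdca8, -0.735 to 0.406 for Plk1, -0.161 to 0.672 for Cdc20, -0.116 to 0.11 for Aurka and -0.074 to 0.564 for Ccne1. PreIR-NTN against NonIR ranged over -0.184 to 0.107 for Cdt1, -0.027 to 0.13 for Mcm2 and -0.275 to 0.353 for Mcm5, and PreIR-NTN against PreIR-GFP over -0.324 to 0.171 for Kif23. Mitotic genes had a median of 17 reads per library, which limits their precision.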
